A study of Sus scrofa with 12 samples.

Results

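Day 12 of endothelial induction (IEC12) was compared with day 4 (IEC4) in cells derived from porcine induced pluripotent stem cells (iPSCs), using 6 of the 12 RNA sequencing libraries analysed here, 3 biological replicates (A, B and C) of each stage. Of the 19681 Ensembl pig genes with a value, the 10126 that reached 1 FPKM in 3 or more of these libraries were tested, and 8526 of them have a gene symbol. FPKM is the number of fragments of a transcript divided by its length and by the total number of fragments of the library. Both stages come from iPSCs plated on Matrigel without feeder cells. They were treated with CHIR99021, an inhibitor of GSK3 that activates WNT signalling, and then with BMP4, FGF2 and VEGF. IEC4 is the end of this second step. IEC12 is the stage reached after a further period in EGM-2, a commercial growth medium for endothelial cells, with VEGF added. The medium and the time therefore changed together, and their parts in a difference cannot be told apart. According to the labels both groups are induced endothelial cells. The paper describes IEC12 as cells after 12 days of induction. It names cells sorted from IEC12 for the endothelial surface protein CD31 as a separate group, and no library used here carries that group's label. Each library is thus a bulk sample of whatever cells the culture held. In such a sample fewer cells of one type and less RNA per cell cannot be told apart. The remaining libraries are 3 each of day 2 (IEC2) and of AOC, a porcine endothelial cell line, and serve here as a reference for a few genes.

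Endothelial cells line blood vessels. In the embryo they arise from mesoderm under BMP, FGF and VEGF signals, switch on a set of ETS and SOX transcription factors, and seal their contacts with VE-cadherin (CDH5) and PECAM1 (CD31). Cells that leave pluripotency can also take other routes, among them epithelia such as the amnion, with keratins and E-cadherin (CDH1), neural cells, and mesenchyme.

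All values below are FPKM given in the order of replicates A, B and C, or differences on the log2(FPKM + 1) scale, on which changes between low values appear smaller than they are. A positive log2 fold change means higher in IEC12. Differences were tested with limma over all 10126 genes, and a gene is called when its Benjamini-Hochberg adjusted p is under 0.05 and its log2 fold change is above 1 or below -1. By this rule 2296 genes were called, which is 22.7% of the genes tested. Of these, 642 (6.34%) were higher and 1654 (16.3%) were lower in IEC12. The losses thus outnumbered the gains. The median log2 fold change of all genes tested was -0.14, and the split depended on how the libraries were scaled, since 39.4% of the calls were higher after median-of-ratios scaling (median -0.0016), 17.9% after scaling to equal totals (median -0.317) and 28.0% with the FPKM as deposited. By the stricter limits of the study's own analysis (p and adjusted p under 0.001, log2 fold change above 3 or below -3), 71 genes (0.701%) differed, 11 (0.109%) higher and 60 (0.593%) lower. In all 71 the 3 libraries of one stage lay outside the range of the other, but this also held for 2288 of the 2296 called genes. Such a gap between the stages therefore adds little to a call. This stricter count rested on single libraries, since 5, 3 and 2 genes passed without IEC4A, without IEC4B and without IEC12B. Of the 2296 called genes, 1467 (63.9%) were also called in each of the 6 fits that left out 1 library.

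Single libraries stood apart within both groups. IEC12A had 15.0% of its FPKM sum in mitochondrial genes, against 9.78% in IEC12B, 7.77% in IEC12C and 4.28 to 7.10% in IEC4. Its 10 most abundant genes took 29.1% of the sum, against 14.6 to 20.3% in the other libraries. It had 8763 genes at 1 FPKM or more, against 9305 and 9452 in the other IEC12 libraries and 9909 to 10467 in IEC4. Within IEC4, library C differed most from the others, being apart by more than 1 on the log2 scale from IEC4A in 646 genes and from IEC4B in 442, against 307 between IEC4A and IEC4B. The number of reads is unknown. The steps between low values give each library's depth up to a common factor, and this relative depth was 0.925 to 1.12 in 5 of the libraries. For IEC12A the steps allowed either 0.608 or 1.22.

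The endothelial label was checked against 26 marker genes, of which 21 have a value by symbol. In IEC12, 18 of the 21 were under 1 FPKM in every library. In AOC, 16 of the 21 averaged at least 1 FPKM, and these 16 include RAMP2 and CALCRL, which were not among the 18. CDH5, the cadherin of endothelial junctions, was listed at 0 in all 6 libraries and averaged 125 FPKM in AOC. PECAM1, the surface protein CD31, was at 0.554, 0.519 and 0.489 FPKM at day 4 and 0.0198, 0.0609 and 0.105 FPKM at day 12, against a mean of 114 FPKM in AOC. The ETS factors ERG and FLI1, the receptors KDR, TEK and TIE1, and the surface proteins EMCN, ESAM and CD34 were likewise under 1 FPKM in every IEC12 library. Among these genes, KDR and TIE1 were also low in AOC, with means of 1.36 and 0.568 FPKM. The defining transcripts of endothelium were thus at or near 0 at both stages, and the libraries are called here by their stage and not by a cell type. The paper, however, reports by flow cytometry that a minority of the differentiated cells carried the PECAM1 protein at the later stage. It also reports staining for PECAM1 on day 12, and staining of the sorted cells for VE-cadherin and other endothelial proteins. Endothelial marker transcripts were measured there by PCR late in the induction, compared between cultures with and without a TGF-β inhibitor. The low PECAM1 transcript therefore stands beside positive protein results. The reason for this difference was not tested, and absence of endothelial cells is not concluded from the transcripts. VWF, SOX7, SOX17, CLDN5 and EGFL7 have no value by symbol.

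Only 3 endothelial markers passed the filter on low values, and they went separate ways. RAMP2 (ENSSSCG00000017389), which with the receptor CALCRL forms the adrenomedullin receptor, was at 0.934, 0.528 and 0.981 FPKM at day 4 and 31, 38.4 and 23.5 FPKM at day 12. All IEC12 libraries lay far above all IEC4 libraries (log2 fold change 4.12, standard error 0.23, adjusted p = 0.000119), and the IEC12 values were of the order of the AOC mean of 56.5 FPKM. CALCRL itself was at 3.94, 3.64 and 2.38 FPKM at day 4 and 7.98, 6.58 and 6.47 FPKM at day 12 (log2 fold change 0.90, adjusted p = 0.0134) and did not reach the fold limit. ENG (endoglin, a co-receptor of the TGF-β family) was at 3.83, 2.46 and 3.48 FPKM at day 4 and 0.278, 0.653 and 2.02 FPKM at day 12. It was called lower (log2 fold change -1.18, standard error 0.33, adjusted p = 0.0258), but not when IEC4A, IEC4C, IEC12A or IEC12B was left out. AOC averaged 17.2 FPKM for CALCRL and 0.872 FPKM for ENG, so ENG was low in the endothelial line as well.

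**Figure D1:**
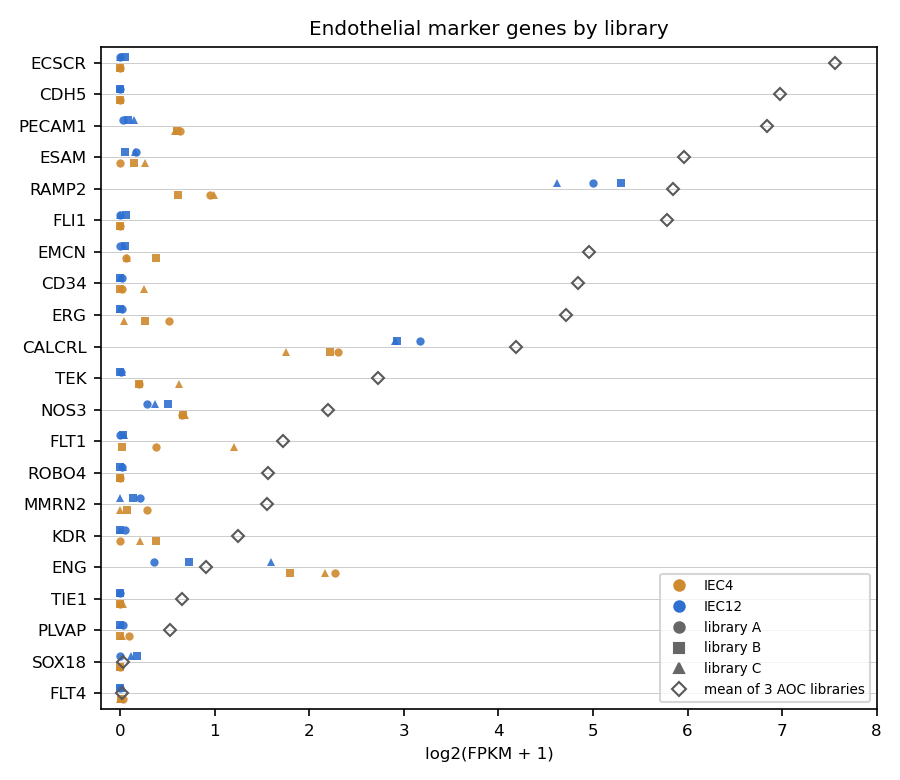
Expression of the 21 endothelial marker genes that have a value, ordered by their level in AOC. The x axis is log2(FPKM + 1), each coloured symbol is 1 library (circle A, square B, triangle C), and open diamonds are the mean of 3 AOC libraries. Apart from RAMP2, CALCRL and ENG, all IEC12 symbols sit under 1 FPKM, that is under 1 on this axis.

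Markers of other cell types were read in the same way. Of 14 epithelial markers with a value, 13 reached 1 FPKM in some IEC4 library and 2 in some IEC12 library, and their summed level was 581, 735 and 1714 FPKM in IEC4 and 42.6, 81.0 and 88.2 FPKM in IEC12. Of 15 neuronal markers, 8 reached 1 FPKM in some IEC4 library and 7 in some IEC12 library. Their sum was 53.1 to 55.0 FPKM in IEC4 and 408 to 440 FPKM in IEC12, nearly all of it STMN2. The sum of 12 fibroblast and mesenchyme markers was 69.3 to 78.0 FPKM in IEC4 and 94.0 to 107 FPKM in IEC12, most of it COL3A1. Of the 5 tested, 0 were called higher and 1, COL1A1, was called lower. Smooth muscle markers summed to 12.5 to 32.0 FPKM and then to 2.88 to 3.70 FPKM. Heart, blood, endoderm and neural crest lists stayed under 10 FPKM in sum at both stages. The part that such cells had in the differences below was not tested.

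The functions that fell by day 12 are described first. The gene lists were written by hand, and each list's count stands against the shares for all genes tested, 16.3% called lower and 6.34% called higher, which are drawn as dashed lines in the plot of list calls. The median of each list described as lower stayed below 0 under all 3 other scalings of the libraries.

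**Figure D2:**
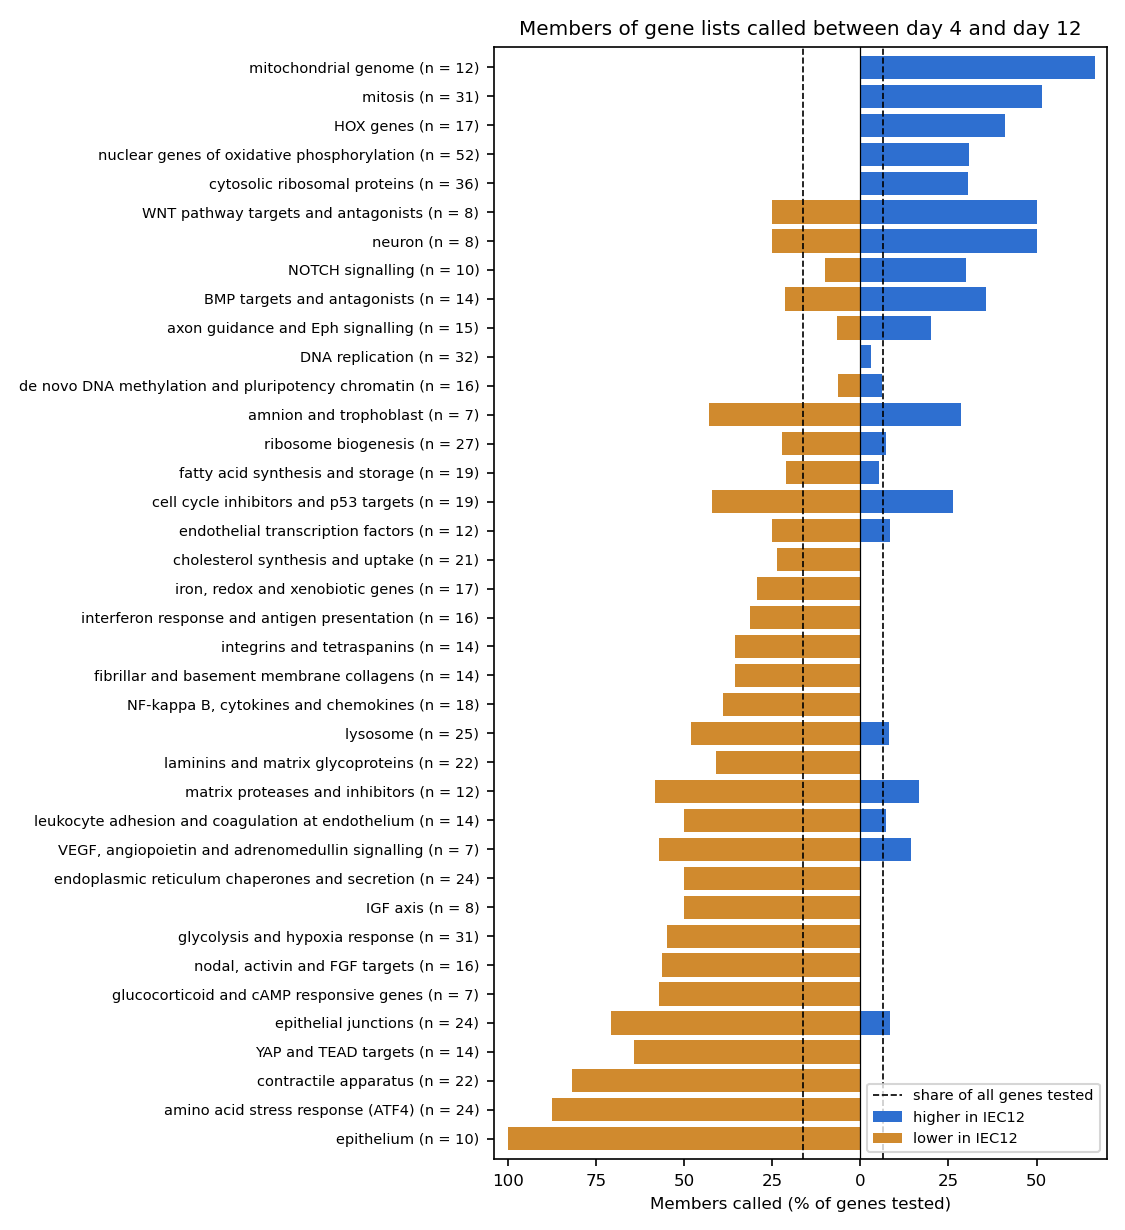
Share of each list's tested genes that were called lower (orange, to the left) or higher (blue, to the right) in IEC12, for lists with at least 7 genes tested. Dashed lines mark the shares over all 10126 genes tested, 16.3% lower and 6.34% higher. All 10 epithelial markers tested were called lower, and of 31 mitosis genes 16 were called higher.

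Epithelial genes showed the deepest fall of any list with more than 4 genes tested. All 10 epithelial markers that passed the filter were called lower, with a median log2 fold change of -3.47, and all 10 stayed called whichever library was left out. KRT8 (ENSSSCG00000000252), a keratin of simple epithelia, was at 300.4, 435 and 748 FPKM at day 4 and 3.64, 11.1 and 14.9 FPKM at day 12 (log2 fold change -5.58, standard error 0.50, adjusted p = 0.000548). Its partner KRT18 was at 8.42, 20.5 and 28.9 FPKM at day 4 and 0.423, 0.667 and 0.518 FPKM at day 12. KRT7, another simple-epithelium keratin, was at 17.1, 18.2 and 62.5 FPKM at day 4 and 0.0194, 0.0898 and 0.149 FPKM at day 12 (log2 fold change -4.69, standard error 0.47, adjusted p = 0.000703). All 4 keratins tested were called lower. CDH1, the epithelial cadherin, was at 7.51, 6.54 and 42.8 FPKM at day 4 and 0.281, 0.395 and 0.418 FPKM at day 12 (log2 fold change -3.37, standard error 0.63, adjusted p = 0.00603), and the claudin CLDN4 at 7.55, 7.34 and 61.1 FPKM at day 4 and 0, 0.0562 and 0 FPKM at day 12. No IEC12 library reached the level of any IEC4 library for these genes. IEC4C was the highest library for each of them, by several-fold for CDH1 and CLDN4, and the 10 markers remained called without it.

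Of 24 genes of epithelial junctions, 17 were called lower and 2 higher (median -1.95). The summed level of this list changed less, at 586, 600 and 1436 FPKM at day 4 and 524, 576 and 548 FPKM at day 12. F11R (junctional adhesion molecule A) was at 64.2, 41.9 and 96.3 FPKM at day 4 and 1.43, 3.35 and 4.3 FPKM at day 12. SPINT1, an inhibitor of membrane serine proteases, was at 9.2, 6.64 and 54.5 FPKM at day 4 and 0, 0.0676 and 0.225 FPKM at day 12. The desmosomal and adherens junction protein JUP was at 18.5, 14.1 and 21.5 FPKM at day 4 and 0.194, 0.367 and 1.14 FPKM at day 12. The 2 exceptions were the polarity protein PARD3, at 22.3, 34.6 and 38.3 FPKM at day 4 and 169.6, 165 and 176 FPKM at day 12 (log2 fold change 2.42, standard error 0.21, adjusted p = 0.000447), and the claudin CLDN10, at 4.42, 13.1 and 5.99 FPKM at day 4 and 35.2, 32.1 and 22.8 FPKM at day 12, both named after their values were seen.

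Markers of amnion and trophoblast did not move as one. Of 7 tested, 3 were called lower and 2 higher. GABRP (ENSSSCG00000021902), a GABA receptor subunit abundant in amnion, had the largest fall among genes past the stricter limits, from 93.9, 64.6 and 184 FPKM in IEC4 to 1.05, 0.584 and 0.332 FPKM in IEC12 (log2 fold change -6.01, standard error 0.38, adjusted p = 0.000173). HAND1, a transcription factor of extraembryonic and cardiac mesoderm, was at 6.59, 6.38 and 9.98 FPKM at day 4 and 0.147, 0.560 and 1.11 FPKM at day 12, and VTCN1 at 3.44, 2.01 and 1.21 FPKM at day 4 and 0.127, 0.257 and 0.244 FPKM at day 12. The transcription factors GATA3 and ISL1 went the other way. GATA3 was at 1.61, 1.16 and 2.92 FPKM at day 4 and 7.66, 11.9 and 15.6 FPKM at day 12 (log2 fold change 2.13, standard error 0.32, adjusted p = 0.00278) and ISL1 at 0.598, 0.480 and 0.698 FPKM at day 4 and 3.51, 5.35 and 6.41 FPKM at day 12 (log2 fold change 1.91, standard error 0.22, adjusted p = 0.00117). The stages did not overlap for any of these 5 genes.

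Genes of the amino acid stress response were lower in nearly the whole list. ATF4 is a transcription factor that cells make when amino acids run short or the endoplasmic reticulum is overloaded, and it drives amino acid synthesis, uptake and charging. Of 24 genes of this response tested, 21 were called lower and 0 higher (median -2.76), and 21 or 22 were called lower without any 1 library. TRIB3 (ENSSSCG00000039862), a pseudokinase induced by ATF4, was at 62.8, 71.5 and 47.8 FPKM at day 4 and 0.132, 0.0139 and 0.170 FPKM at day 12 (log2 fold change -5.79, standard error 0.20, adjusted p = 4.39e-05). NUPR1, a stress-induced chromatin protein, was at 133, 157 and 232 FPKM at day 4 and 2.02, 4.59 and 4.63 FPKM at day 12 (log2 fold change -5.22, standard error 0.31, adjusted p = 0.000155). CHAC1, which degrades glutathione, was at 80.1, 84.4 and 57.3 FPKM at day 4 and 0.689, 1.25 and 2.04 FPKM at day 12 (log2 fold change -5.03, standard error 0.26, adjusted p = 0.000105). The stages did not overlap for any of the 3. PSAT1 (ENSSSCG00000005287), an enzyme of serine synthesis, was at 1752, 1769 and 1110.2 FPKM at day 4 and 43.5, 45.2 and 53.6 FPKM at day 12 (log2 fold change -4.97, standard error 0.21, adjusted p = 6.59e-05). The IEC12 libraries lay close together for TRIB3 and PSAT1, and each stayed far below IEC4. IEC2 averaged 1396 FPKM for PSAT1 and 28 FPKM for TRIB3.

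The folding machinery of the endoplasmic reticulum went in the same direction, with 12 of 24 genes called lower and 0 higher (median -0.98). HSPA5 (ENSSSCG00000005601), the main chaperone of this compartment, was at 1908, 2503 and 2362 FPKM at day 4 and 323, 343 and 304 FPKM at day 12 (log2 fold change -2.79, standard error 0.14, adjusted p = 8.93e-05). HYOU1, a chaperone of the same family of stress proteins, was at 8.54, 13.4 and 11.4 FPKM at day 4 and 0.615, 1.09 and 1.35 FPKM at day 12. The disulfide isomerase PDIA4 was at 186, 236 and 196 FPKM at day 4 and 27.6, 39.8 and 42.5 FPKM at day 12, and HERPUD1, a component of the degradation machinery, at 26.7, 34.2 and 32.2 FPKM at day 4 and 6.7, 8.09 and 7.17 FPKM at day 12. For HSPA5 the 3 libraries of IEC12 differed from one another by far less than from IEC4. Of 25 lysosomal genes, 12 were called lower and 2 higher, or 1 higher without IEC4A (median -0.98). The summed level of this list did not fall, at 1817, 1926 and 2874 FPKM at day 4 and 3360, 3212.5 and 2699 FPKM at day 12. Those called lower included the protease CTSD at 15.4, 21.9 and 29.1 FPKM at day 4 and 0.482, 3.25 and 5.42 FPKM at day 12 and the glycosidase GAA at 5.47, 7.61 and 7.86 FPKM at day 4 and 0.121, 0.781 and 0.736 FPKM at day 12.

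Sugar metabolism and hypoxia response genes fell in part. Of 31 tested, 17 were called lower and 0 higher (median -1.23), and 11 to 20 were called lower when 1 library was left out, the fewest without IEC4A. EPAS1 (ENSSSCG00000008443), the hypoxia-inducible factor 2α that is typical of endothelium, was at 31.7, 21.9 and 13.5 FPKM at day 4 and 0.0396, 0.0229 and 0.152 FPKM at day 12 (log2 fold change -4.37, standard error 0.30, adjusted p = 0.00022). NDRG1, a hypoxia-induced gene, was at 19.7, 25.1 and 21.6 FPKM at day 4 and 0.650, 1.31 and 1.52 FPKM at day 12. DDIT4, an inhibitor of mTOR signalling, was at 86.9, 118 and 96.3 FPKM at day 4 and 3.73, 12.7 and 18.8 FPKM at day 12. ADM, the peptide ligand of the CALCRL and RAMP2 receptor, was at 38.7, 44.5 and 44.6 FPKM at day 4 and 2.34, 4.56 and 6.18 FPKM at day 12 (log2 fold change -3.09, standard error 0.28, adjusted p = 0.000562), so the ligand was called lower while RAMP2 was called higher. GAPDH, an enzyme of glycolysis often used to scale PCR data, was at 2022, 1877 and 1562 FPKM at day 4 and 534, 674 and 796 FPKM at day 12 (log2 fold change -1.46, standard error 0.18, adjusted p = 0.00147) and did not overlap between stages. In this list IEC12C was above IEC12A by more than 1 on the log2 scale for 12 of the 31 genes, and IEC12A above IEC12C for 0. Over all genes tested the shares were 13.3% and 2.13%.

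Most genes of the contractile apparatus were called lower, 18 of 22, and 0 higher (median -1.59), with 17 to 19 called lower when 1 library was left out. MYL9 (ENSSSCG00000036402), the regulatory light chain of non-muscle and smooth muscle myosin, was at 25.9, 19 and 41.3 FPKM at day 4 and 0.373, 0.254 and 0.956 FPKM at day 12 (log2 fold change -4.24, standard error 0.31, adjusted p = 0.000299). The actin crosslinker ACTN1 was at 32.7, 33.1 and 56.3 FPKM at day 4 and 0.957, 3.1 and 6.4 FPKM at day 12. PDLIM7, a scaffold on actin filaments, was at 141, 118 and 185 FPKM at day 4 and 9.67, 25.9 and 46.6 FPKM at day 12, and the filamin FLNA at 18.2, 17.7 and 27.3 FPKM at day 4 and 1.78, 4.71 and 5.91 FPKM at day 12. For ACTN1, PDLIM7 and FLNA the IEC12 libraries were themselves spread, with IEC12A lowest and IEC12C highest, though all were below IEC4. ACTA2, smooth muscle actin, was at 3.26, 1.31 and 4.77 FPKM at day 4 and 0.131, 0.0621 and 0.0688 FPKM at day 12. Targets of YAP and TEAD, the factors that respond to tension on this apparatus, were called lower in 9 of 14 and higher in 0 (median -1.52). ANKRD1 (ENSSSCG00000010461) was at 31.1, 53.7 and 165 FPKM at day 4 and 0.336, 0.176 and 0.289 FPKM at day 12 (log2 fold change -5.71, standard error 0.54, adjusted p = 0.000625), the kinase NUAK2 at 15.1, 14 and 35.1 FPKM at day 4 and 0.167, 0.439 and 0.776 FPKM at day 12, and the growth factor TGFB2 at 5.1, 9.94 and 21 FPKM at day 4 and 0.680, 1.08 and 1.58 FPKM at day 12.

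Matrix genes were called lower in smaller shares. Of 22 laminins and matrix glycoproteins, 9 were called lower and 0 higher (median -1.05). SPARC, a collagen-binding glycoprotein, was at 663, 646 and 1159.5 FPKM at day 4 and 53.6, 96 and 117 FPKM at day 12 (log2 fold change -3.21, standard error 0.34, adjusted p = 0.000824), the laminin chain LAMB1 at 17.6, 22.1 and 71 FPKM at day 4 and 3.79, 3.12 and 1.99 FPKM at day 12 and LAMA5 at 3.01, 3.71 and 6.42 FPKM at day 4 and 0.0720, 0.0654 and 0.122 FPKM at day 12. THBS1 (thrombospondin 1) was at 7.45, 6.67 and 70.1 FPKM at day 4 and 0.127, 0.118 and 0.194 FPKM at day 12, with IEC4C far above the other IEC4 libraries. Of 14 collagens and their processing enzymes, 5 were called lower and 0 higher (median -0.56). They included the crosslinking enzyme LOXL2 at 23.5, 30.8 and 56.9 FPKM at day 4 and 0.799, 1.43 and 2.0 FPKM at day 12, the collagen chaperone SERPINH1 at 26.9, 30.6 and 29.3 FPKM at day 4 and 0.577, 3.17 and 6.84 FPKM at day 12, and COL1A1 at 4.73, 2.18 and 9.86 FPKM at day 4 and 0.0448, 0.0363 and 0.0976 FPKM at day 12. Of 14 integrins and tetraspanins, 5 were called lower, and 3 without IEC12B. Those called lower included the fibronectin receptor chain ITGA5 at 10.8, 9.98 and 26.6 FPKM at day 4 and 0.622, 0.996 and 1.11 FPKM at day 12 (log2 fold change -3.01, standard error 0.36, adjusted p = 0.00131). The summed level of this list did not fall, at 1255, 1491 and 2284 FPKM at day 4 and 2258, 2004 and 1621 FPKM at day 12.

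Genes that act at the vessel wall were called lower in 7 of 14 and higher in 1. PLAU (ENSSSCG00000010312), the urokinase-type plasminogen activator, had the largest fall of all genes tested, at 40.6, 33.3 and 621 FPKM at day 4 and 0.235, 0.638 and 0.0464 FPKM at day 12 (log2 fold change -6.22, standard error 1.02, adjusted p = 0.00374). Its size rests partly on IEC4C, and without IEC4C the log2 fold change was -4.88 (adjusted p = 0.000643). F2RL1, a receptor cleaved by proteases, was at 11.9, 9.75 and 55.7 FPKM at day 4 and 0.422, 0.255 and 0.435 FPKM at day 12. SELP (P-selectin), which holds leukocytes at activated endothelium, was the 1 member called higher, at 0, 0.0975 and 0 FPKM at day 4 and 3.68, 6.58 and 4.79 FPKM at day 12 (log2 fold change 2.52, standard error 0.21, adjusted p = 0.000447), and was named after its values were seen. Of 12 matrix proteases and inhibitors, 7 were called lower and 2 higher. Without IEC4B, IEC4C, IEC12A or IEC12B, 5 were called lower. Both higher calls, CTSL and, named after its values were seen, TIMP4, were lost without IEC4A. Among VEGF, angiopoietin and adrenomedullin genes, 4 of 7 were called lower. VEGFA, the growth factor for the receptor KDR, was at 2.41, 4.65 and 3.66 FPKM at day 4 and 0.324, 0.536 and 0.396 FPKM at day 12.

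Nodal, activin and FGF target genes were called lower in 9 of 16 and higher in 0 (median -1.18). ETV4, a target of FGF signalling, was at 9.39, 9.47 and 14 FPKM at day 4 and 0.773, 1.66 and 3.34 FPKM at day 12. LEFTY2, a nodal antagonist, was at 8.08, 3.83 and 1.12 FPKM at day 4 and 0.0515, 0 and 0.132 FPKM at day 12, with the IEC4 libraries several-fold apart. The early response gene EGR1 was at 4.82, 4.65 and 2.83 FPKM at day 4 and 0.182, 0.137 and 0.491 FPKM at day 12, and FST (follistatin, which binds activin) at 203, 153 and 259 FPKM at day 4 and 37.7, 63.3 and 58.8 FPKM at day 12. Of 18 NF-κB, cytokine and chemokine genes, 7 were called lower and 0 higher. CCL2, a chemokine for monocytes, was at 58.6, 54.3 and 301 FPKM at day 4 and 1.97, 1.4 and 2.18 FPKM at day 12 (log2 fold change -5.14, standard error 0.61, adjusted p = 0.00128), CXCL8 at 10.3, 9.19 and 13.4 FPKM at day 4 and 1.52, 0.484 and 0.439 FPKM at day 12 and IL6 at 11, 11.2 and 25.3 FPKM at day 4 and 4.16, 4.03 and 3.34 FPKM at day 12. No IEC12 library reached the IEC4 range for any of these genes. Of 16 interferon and antigen presentation genes, 5 were called lower and 0 higher, but 3 were called lower without IEC4B or without IEC12B. Of 8 genes of the IGF axis 4 were called lower, with IGFBP2 at 24.9, 29.1 and 29.8 FPKM at day 4 and 0.698, 2.02 and 3.59 FPKM at day 12 (log2 fold change -3.33, standard error 0.35, adjusted p = 0.000812). NQO1, a quinone reductase controlled by NRF2, was at 707, 817 and 785 FPKM at day 4 and 54.5, 78.9 and 86.4 FPKM at day 12 (log2 fold change -3.40, standard error 0.19, adjusted p = 0.000119), and 5 of the 17 genes of its list were called lower. LPL, which releases fatty acids from lipoproteins, was at 182, 129 and 82.3 FPKM at day 4 and 7.48, 9.69 and 8.83 FPKM at day 12 (log2 fold change -3.71, standard error 0.28, adjusted p = 0.00032), and ME1, which makes NADPH, at 25.8, 30.5 and 29.2 FPKM at day 4 and 2.8, 2.42 and 3.95 FPKM at day 12, while 4 of 19 lipid synthesis and storage genes were called lower and 1 higher, or 2 higher without IEC4C.

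Cell cycle inhibitors and p53 targets split into both directions, 8 lower and 5 higher of 19, and 5 were called lower without IEC4A. SESN2, which restrains mTOR, was at 15.9, 17.4 and 17.2 FPKM at day 4 and 0.333, 0.781 and 1.13 FPKM at day 12 (log2 fold change -3.38, standard error 0.22, adjusted p = 0.000175). CDKN1A, the inhibitor p21, was at 678, 519.7 and 656 FPKM at day 4 and 47, 81.1 and 249 FPKM at day 12 (log2 fold change -2.63, standard error 0.54, adjusted p = 0.0086), with IEC12C several times above IEC12A. TXNIP, which binds thioredoxin and limits glucose uptake, was the largest gain of this list, at 0.336, 0.287 and 4.86 FPKM at day 4 and 31.1, 33.2 and 35.2 FPKM at day 12 (log2 fold change 3.98, standard error 0.56, adjusted p = 0.00224). IEC4C lay above the other IEC4 libraries for TXNIP but well below IEC12.

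The genes gained by day 12 were fewer. Past the stricter limits, 11 were higher, of which 9 have a symbol and 8 are described here, and for these genes the stages lay far apart in the plot of the largest differences.

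**Figure D3:**
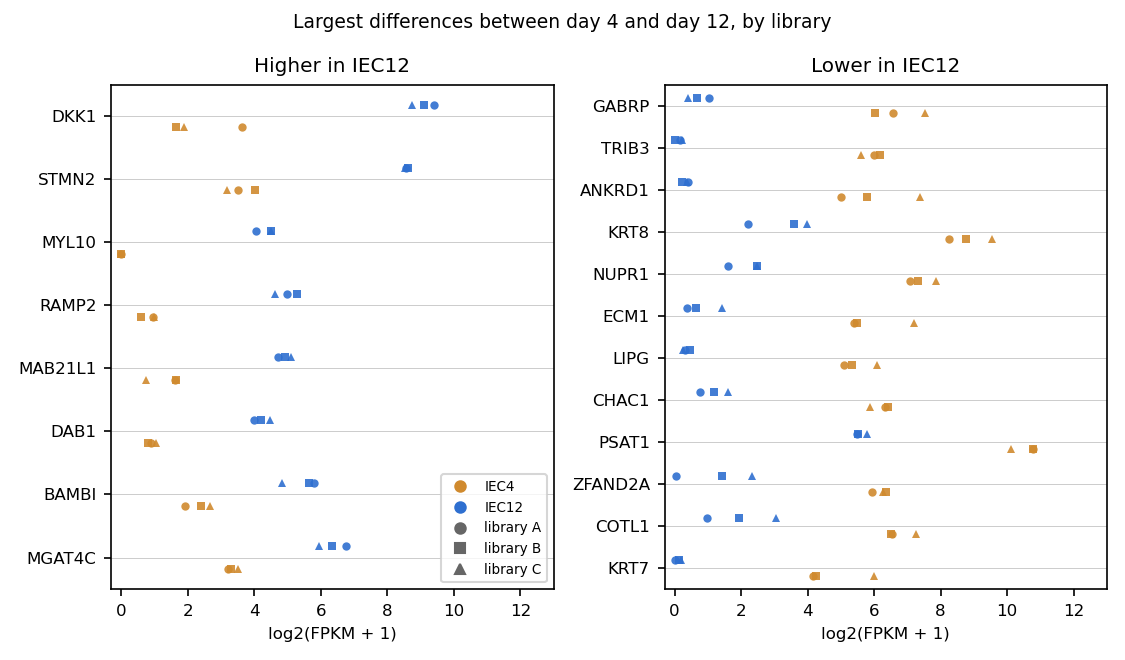
Genes higher (8 shown) and lower (the 12 largest) in IEC12 past the stricter limits, by library. The x axis is log2(FPKM + 1), orange is IEC4 and blue IEC12, and circle, square and triangle are libraries A, B and C. In every gene all 3 libraries of one stage lie outside the range of the other, and DKK1 spans 2.15 to 11.4 FPKM within IEC4.

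DKK1 (ENSSSCG00000010428), a secreted inhibitor of WNT receptors, had the largest gain, from 11.4, 2.15 and 2.69 FPKM in IEC4 to 682, 552 and 426 FPKM in IEC12 (log2 fold change 6.70, standard error 0.50, adjusted p = 0.000299). STMN2 (ENSSSCG00000006160), a regulator of microtubules in neurons, was at 10.3, 15.1 and 8.15 FPKM at day 4 and 375, 397 and 370.1 FPKM at day 12 (log2 fold change 5.01, standard error 0.21, adjusted p = 6.59e-05). The IEC12 libraries agreed closely on STMN2, and AOC averaged 0.331 FPKM. MYL10 (ENSSSCG00000007680), a myosin light chain, was listed at 0 in all IEC4 libraries and was at 15.8, 21.6 and 21.8 FPKM in IEC12 (adjusted p = 6.59e-05), so no fold is given. MAB21L1, a developmental gene of eye and neural crest derivatives, was at 2.04, 2.14 and 0.669 FPKM at day 4 and 25.4, 29.3 and 33.4 FPKM at day 12, and DAB1, an adaptor of reelin signalling, at 0.849, 0.754 and 1.07 FPKM at day 4 and 15, 17.5 and 21.2 FPKM at day 12. The stages were well separated for each of these genes. MGAT4C, a glycosyltransferase, was at 8.22, 8.93 and 10.5 FPKM at day 4 and 107, 79.3 and 61.3 FPKM at day 12. BAMBI, a pseudoreceptor that dampens TGF-β family signals, was at 2.78, 4.29 and 5.31 FPKM at day 4 and 54.3, 49.4 and 27.6 FPKM at day 12 (log2 fold change 3.10, standard error 0.30, adjusted p = 0.000671).

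Among these gains, DKK1 belongs to the WNT list and BAMBI to the BMP list. Of 8 WNT targets and antagonists tested, 4 were called higher and 2 lower, and 4 were called higher in each fit that left out 1 library. Beside DKK1, the secreted antagonist DKK2 was at 1.3, 0.935 and 0.0513 FPKM at day 4 and 4.28, 5.06 and 4.07 FPKM at day 12. LEF1, a nuclear effector and target of WNT, was at 11.1, 11.4 and 10.1 FPKM at day 4 and 23.9, 32.3 and 30.2 FPKM at day 12 (log2 fold change 1.32, standard error 0.16, adjusted p = 0.00152), and LGR5, a WNT target and receptor for R-spondins, at 0.0780, 0 and 0.244 FPKM at day 4 and 1.58, 1.68 and 1.24 FPKM at day 12, both named after their values were seen. The antagonists SFRP1, at 17.9, 16.2 and 44.1 FPKM at day 4 and 4.31, 4.0 and 3.92 FPKM at day 12, and SFRP2, at 11.7, 17.1 and 14.1 FPKM at day 4 and 1.73, 3.38 and 4.72 FPKM at day 12, were called lower. Secreted antagonists of WNT were thus called in both directions. Of 14 BMP targets and antagonists, 5 were called higher and 3 lower. ID3 (ENSSSCG00000039514), a direct BMP target, was already high and was at 559, 512 and 753 FPKM at day 4 and 2716, 2678 and 2577 FPKM at day 12 (log2 fold change 2.14, standard error 0.16, adjusted p = 0.000317). The ligand BMP4 itself was called lower, at 16.7, 23.8 and 48.3 FPKM at day 4 and 4.66, 4.71 and 5.4 FPKM at day 12 (log2 fold change -2.24, standard error 0.35, adjusted p = 0.00331). The BMP antagonist NOG (noggin) was at 0.104, 0 and 0 FPKM at day 4 and 1.86, 2.66 and 1.64 FPKM at day 12 and was named after its values were seen. Of 10 NOTCH genes, 3 were called higher and 1 lower, with HES6 at 2.48, 5.72 and 4.98 FPKM at day 4 and 16.5, 32.1 and 25 FPKM at day 12 (log2 fold change 2.25, standard error 0.33, adjusted p = 0.00256). The other calls of this list, HEY1 and HES1 higher and the ligand JAG1 lower, are named after their values were seen, and HEY1 and JAG1 were each lost in some fits with 1 library left out.

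Mitosis genes were called higher in 16 of 31 and lower in 0 (median 1.01). CENPF (ENSSSCG00000015581), a kinetochore protein, was at 12.6, 12.5 and 15.4 FPKM at day 4 and 69.1, 56.2 and 46.6 FPKM at day 12 (log2 fold change 2.00, standard error 0.18, adjusted p = 0.000593). CENPA, the histone of centromeres, was at 2.69, 3.68 and 3.4 FPKM at day 4 and 14.3, 15.4 and 12.6 FPKM at day 12. CCNB1, cyclin B1, was at 30.1, 31.8 and 30 FPKM at day 4 and 113, 114 and 103 FPKM at day 12 (log2 fold change 1.81, standard error 0.12, adjusted p = 0.000188) and its kinase CDK1 at 10.5, 11.8 and 15.4 FPKM at day 4 and 42.2, 43.1 and 37.5 FPKM at day 12. The stages did not overlap for these 4 genes. Between 14 and 17 mitosis genes were called when 1 library was left out, 19 after median-of-ratios scaling and 10 after scaling to equal totals, where the median was 0.81. In contrast, only CCNE2 of 32 DNA replication genes was called higher and 0 lower. Without IEC12C, 2 were called higher and 3 lower, and after scaling to equal totals 1 higher and 2 lower. The median of this list, 0.15, was -0.045 after scaling to equal totals.

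HOX genes, which mark position along the body axis, were called higher in 7 of 17 and lower in 0 (median 0.88, and 0.70 to 1.02 over the scalings). HOXC8 was at 0.637, 0.824 and 0.941 FPKM at day 4 and 5.86, 7.17 and 5.17 FPKM at day 12 (log2 fold change 1.97, standard error 0.18, adjusted p = 0.000612) and HOXA2 at 1.51, 0.914 and 1.31 FPKM at day 4 and 7.39, 8.38 and 4.04 FPKM at day 12. HOXD11 was at 7.84, 10.3 and 7.74 FPKM at day 4 and 17.3, 22.9 and 22.7 FPKM at day 12, and was not called after scaling to equal totals. The number called was 4 after scaling to equal totals and 10 after median-of-ratios scaling. Of 8 neuronal markers tested, 4 were called higher and 2 lower. STMN3 was at 0.113, 0.0374 and 0.222 FPKM at day 4 and 2.98, 8.89 and 10 FPKM at day 12 (log2 fold change 2.75, standard error 0.38, adjusted p = 0.00216), whereas SNAP25, a protein of synaptic vesicle release, was at 14, 12 and 12.9 FPKM at day 4 and 2.57, 3.88 and 3.55 FPKM at day 12 and GAP43, a growth cone protein, at 4.42, 3.04 and 4.05 FPKM at day 4 and 0.341, 0.624 and 0.534 FPKM at day 12, both called lower. The other 2 higher calls were ELAVL2, at 1.01, 1.15 and 1.35 FPKM at day 4 and 4.04, 3.75 and 3.59 FPKM at day 12, and NEFL, which was not called without IEC4B, IEC4C, IEC12B or IEC12C. Of 15 axon guidance genes, 3 were called higher and 1 lower, and the median, 0.071, was -0.043 after scaling to equal totals. Without IEC12A, and after scaling to equal totals, 1 was called higher, and 2 were called lower without IEC4A and 0 without IEC4C. SLIT2, a secreted guidance ligand, was at 6.57, 6.23 and 5.14 FPKM at day 4 and 47.5, 34.9 and 39.4 FPKM at day 12 (log2 fold change 2.57, standard error 0.18, adjusted p = 0.000219). The polycomb methyltransferase EZH2 was at 3.34, 6.08 and 4.76 FPKM at day 4 and 17.4, 13.8 and 13 FPKM at day 12 (log2 fold change 1.48, standard error 0.23, adjusted p = 0.00311), 1 of 2 genes called among 16 of de novo DNA methylation and pluripotency chromatin, and the number called higher in this list was 1, or 2 without IEC12C.

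Genes of the ribosome and of respiration were called higher in part, and these calls depended on single libraries. Of 36 cytosolic ribosomal protein genes, 11 were called higher and 0 lower (median 0.70). Of 12 genes of the mitochondrial genome, 8 were called higher and 0 lower (median 1.44), and of 52 nuclear genes of oxidative phosphorylation, 16 and 0 (median 0.75). The medians kept their sign under the scalings in which they could be computed. The number of calls moved with the libraries used. Without IEC4A, 1 ribosomal, 3 mitochondrial and 9 nuclear respiratory genes were called. Without IEC4B these numbers were 1, 2 and 10, without IEC12A 7, 5 and 12, and without IEC12B 3, 4 and 10. Without IEC4C they were 17, 9 and 25, and without IEC12C 14, 11 and 20. ATP5ME, a small subunit of ATP synthase, was at 10.3, 11.1 and 20.6 FPKM at day 4 and 179, 69 and 36.8 FPKM at day 12 (log2 fold change 2.44, standard error 0.55, adjusted p = 0.0118). UQCR11, of respiratory complex III, was at 20.9, 16.9 and 33 FPKM at day 4 and 251, 113 and 54.5 FPKM at day 12 (log2 fold change 2.30, standard error 0.52, adjusted p = 0.0125). RPL27 was at 47.8, 51.9 and 75.3 FPKM at day 4 and 546, 254 and 168 FPKM at day 12 (log2 fold change 2.30, standard error 0.41, adjusted p = 0.00508). RPS28 was at 26.9, 38.4 and 68.8 FPKM at day 4 and 577, 196 and 101 FPKM at day 12 and was not called without IEC4A or IEC4B. In all 4 genes IEC12A was highest and IEC12C lowest of the IEC12 libraries, and IEC4C was highest of the IEC4 libraries.

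The study's primer table gives a further set of genes measured by PCR, of which 15 were tested here. ACVR1, a BMP type I receptor, was at 12.5, 13.2 and 13.3 FPKM at day 4 and 42, 32.1 and 23.6 FPKM at day 12 (log2 fold change 1.22, standard error 0.22, adjusted p = 0.00484). LYPD1 was at 1.41, 1.58 and 1.18 FPKM at day 4 and 4.82, 6.98 and 8.13 FPKM at day 12 (log2 fold change 1.66, standard error 0.22, adjusted p = 0.00185). ANXA6, a calcium-dependent membrane-binding protein, was at 119.9, 134 and 96.9 FPKM at day 4 and 6.38, 18.2 and 27.8 FPKM at day 12 (log2 fold change -2.87, standard error 0.46, adjusted p = 0.00344), and the tetraspanin CD9 at 91, 144 and 418 FPKM at day 4 and 40.1, 46.4 and 28 FPKM at day 12 (log2 fold change -2.21, standard error 0.52, adjusted p = 0.014). Of these, ACVR1 and LYPD1 were called higher and ANXA6 and CD9 lower. CLDN6, an embryonic claudin, was at 202, 216 and 612 FPKM at day 4 and 37.1, 67.4 and 70.5 FPKM at day 12 (log2 fold change -2.39, standard error 0.45, adjusted p = 0.00638). MESP2, a transcription factor of early mesoderm, was at 1.41, 1.39 and 1.35 FPKM at day 4 and 1.45, 2.43 and 2.7 FPKM at day 12 (log2 fold change 0.40, adjusted p = 0.15) and CYYR1 at 3.76, 0.802 and 6.62 FPKM at day 4 and 5.99, 11.8 and 15.4 FPKM at day 12 (log2 fold change 1.49, adjusted p = 0.064), and neither was called. LSM4, MPPED2 and NEDD4L had adjusted p-values from 0.0111 to 0.0337 but log2 fold changes within 1, and FTL had an adjusted p of 0.194.

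The spread between the IEC12 libraries was then examined. IEC12A and IEC12C lay apart by more than 1 on the log2 scale in 1558 genes, 15.4% of those tested. IEC12A and IEC12B lay apart in 781 genes (7.71%) and IEC12B and IEC12C in 140 (1.38%), while pairs of IEC4 libraries lay apart in 307 to 646. IEC12A thus stood apart, and IEC12B and IEC12C were the closest pair of the 6. Of the 1558 genes, 216 were higher in IEC12A and 1342 in IEC12C, and in 1494 of them (95.9%) IEC12B lay between the others. The genes were picked for a wide gap between IEC12A and IEC12C, which by itself makes a middle place for IEC12B likely. No such share was computed for other genes, so no ordering of the libraries is read from it. The sign of the median difference depended on the scaling. The median difference, IEC12A minus IEC12C, was -0.17, against 0.039 after median-of-ratios scaling, where 444 genes were higher in IEC12A and 927 in IEC12C.

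**Figure D4:**
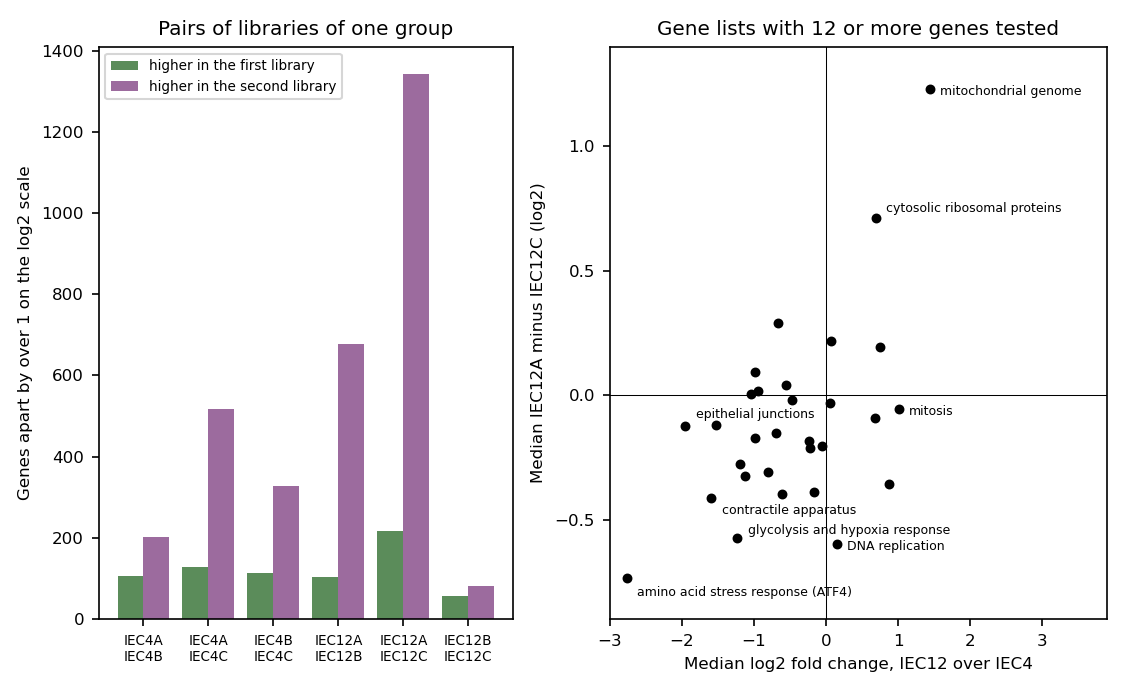
Left, number of genes apart by over 1 on the log2 scale for each pair of libraries of one stage, with bars for the first (green) and the second (purple) library named being higher. Right, for each list with at least 12 genes tested, the median difference between IEC12A and IEC12C against the median log2 fold change of IEC12 over IEC4. IEC12A and IEC12C form the tallest bar, 1342 genes, and the mitochondrial genome list lies at 1.44 and 1.23.

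The 10 genes with a symbol that lay furthest above IEC12C in IEC12A were RPS28, RPL23A, COX5B, RPLP2, RPL23, ATP5ME, COX17, UQCR11, TMA7 and COX7A2. All but COX17 and TMA7 are ribosomal proteins or subunits of respiratory complexes. RPS28 was 2.50 higher on the log2 scale in IEC12A than in IEC12C and RPL23A, at 1.57, 1.6 and 3.12 FPKM at day 4 and 20.4, 7.08 and 3.18 FPKM at day 12, 2.35 higher. COX17, a copper chaperone of cytochrome oxidase, was at 53.6, 41.6 and 50.2 FPKM at day 4 and 481, 193 and 104 FPKM at day 12. Over lists, the median difference between IEC12A and IEC12C was 0.71 for ribosomal proteins, with 12 of 36 genes more than 1 apart and IEC12A higher in all 12, and 1.23 for the mitochondrial genome, with 10 of 12. Nuclear genes of oxidative phosphorylation, 52 tested, had a median of 0.19, with 5 higher in IEC12A and 6 in IEC12C. Of all genes tested, 2.13% were higher by more than 1 in IEC12A and 13.3% in IEC12C. Of the 216 genes, 135 have no symbol, against 1600 of all 10126.

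The 10 genes that lay furthest above IEC12A in IEC12C were of diverse function. They were CHMP1A, MVD, NTS, AMDHD2, TOLLIP, TP53I13, PPP2R1A, PFKP, PYCR3 and NAPA. CHMP1A, of the membrane-cutting ESCRT-III complex, was at 43.5, 45.1 and 46.3 FPKM at day 4 and 1.69, 14 and 33.8 FPKM at day 12 (adjusted p = 0.0819 for the stages). MVD, an enzyme of cholesterol synthesis, was at 91.7, 126 and 76.5 FPKM at day 4 and 3.37, 30.4 and 52.9 FPKM at day 12. TOLLIP, an adaptor of Toll-like receptor signalling, was at 60.1, 55.2 and 57.7 FPKM at day 4 and 2.91, 21.3 and 36.1 FPKM at day 12. For these 3 genes IEC12C lay near the IEC4 range and IEC12A far below it, and none was called between stages. NTS (neurotensin, a neuropeptide) was the exception, at 0, 2.34 and 0.312 FPKM at day 4 and 18.3, 32.2 and 198 FPKM at day 12 (log2 fold change 4.94, standard error 0.86, adjusted p = 0.00473), where both stages were spread and IEC12C exceeded the other IEC12 libraries several-fold. Over lists, IEC12C was higher by more than 1 in 10 of 32 DNA replication genes (median -0.60) and in 7 of 24 genes of the ATF4 response (median -0.73), and IEC12A in 0 of each. These medians stand beside -0.17 for all genes tested, of which 13.3% were higher by more than 1 in IEC12C and 2.13% in IEC12A.

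**Figure D5:**
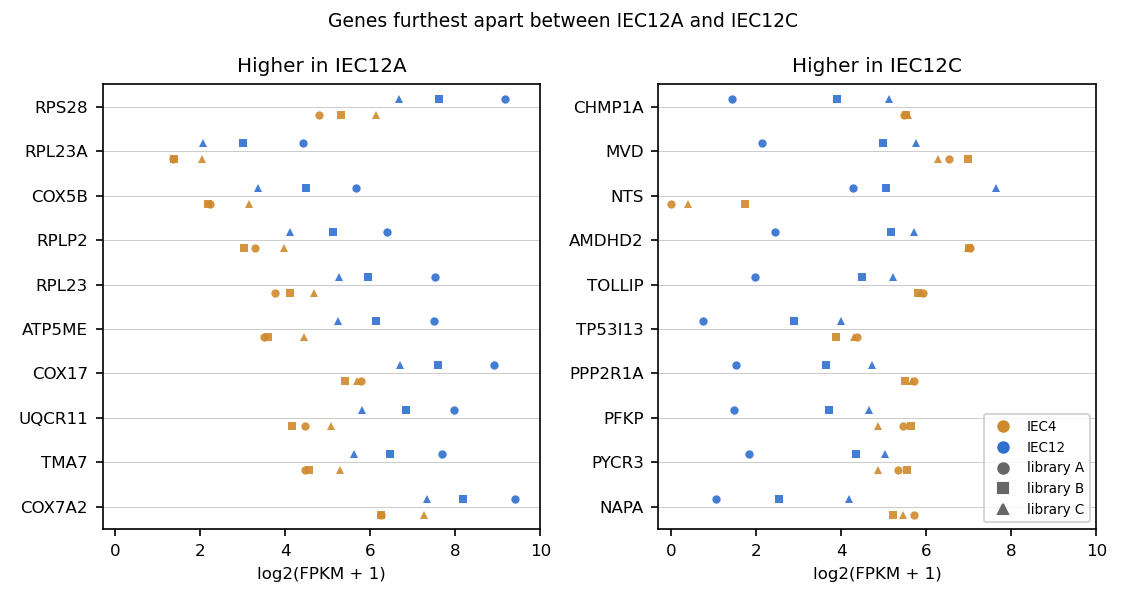
The 10 genes furthest apart in each direction between IEC12A and IEC12C among genes with a mean of at least 5 FPKM, by library. The x axis is log2(FPKM + 1), with orange for IEC4, blue for IEC12, and circle, square and triangle for libraries A, B and C. IEC12B lies between IEC12A and IEC12C for all 20 genes, which were picked for the gap between those libraries. For 9 of the 10 genes higher in IEC12C the IEC4 libraries lie near or above IEC12C.

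The spread was not even over genes that differed between the stages. Among the 1654 genes called lower at day 12, 503 (30.4%) were higher in IEC12C than in IEC12A by more than 1 and 3 the other way. Among the 642 called higher, 67 (10.4%) were higher in IEC12A and 16 in IEC12C. Among the 7830 genes not called, the numbers were 146 and 823. IEC12A and IEC12C both enter the fit that made the calls, so the genes were also grouped by IEC12B alone. The 1660 genes that IEC12B had below the IEC4 mean by more than 1 had a median difference between IEC12A and IEC12C of -0.55, the 768 it had above the mean a median of 0.17, and the 7698 others a median of -0.14. The mitochondrial share and the relative depth given above differ between the same libraries, and their part in this spread was not tested. Without IEC12A, 1929 genes were called, 614 higher and 1315 lower, of which 1821 were among the 2296. Without IEC12C, 2806 were called. With both IEC12A and IEC4C left out, 2076 were called, 1844 of them among the 2296, and the epithelial, ATF4 and contractile lists then had 10, 22 and 16 genes called lower.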

How the data were processed

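The authors prepared amplified cDNA by the Smart-Seq2 protocol and libraries with a SMARTER kit, sequenced them on a HiSeq instrument and processed the reads in Galaxy, a web platform. The submitters' processing notes name Bowtie2 2.2.3, TopHat2 2.0.12, Cufflinks 2.2.1 and the build susScr11, and the annotation is not given in the sources used here. The authors deposited 1 FPKM value per gene and library, without counts, so the number of reads behind a value is unknown and no counting interval is given. Whether the libraries were scaled further is not given. Values listed at 0 can be failed estimates. The files do not state their unit, which was inferred from their layout and values.

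Genes that reached 1 FPKM in 3 or more of the 6 libraries were tested on log2(FPKM + 1) with limma 3.58.1 in R 4.3.3 (lmFit, contrasts.fit, eBayes with trend = TRUE), without a replicate term, and p-values were adjusted by the Benjamini-Hochberg method over all genes tested. Lists were summarised by counts and medians with pandas 2.3.3 and NumPy 2.4.6 in Python 3.11.15, and figures were drawn with matplotlib 3.10.9. Symbols come from a table of gene names that matched 13998 identifiers. The lists, members and limits were chosen with earlier results of these data known, so no list is independent evidence of its direction. Genes that share reads with near-identical copies, such as ribosomal protein genes, actins and keratins, have uncertain values.

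Named genes are the 12 largest changes in each direction past the stricter limits, up to 4 of the largest called members of a list and its cell type markers, the genes of the study's primer table, and the 10 largest differences in each direction between IEC12A and IEC12C at a mean of at least 5 FPKM. Any other gene is marked as named after its values were seen, and some genes under this rule are not reported here. On simulated data with the means and spread of the 6 libraries, the test called 88 of 100 genes with a simulated log2 change of 2 and 100 of 100 with a change of 5. There were 7 false calls among the genes left unchanged. The simulation drew each gene independently and raised only these genes. It therefore cannot show the error rate where many genes of a library shift together, as in IEC12A. Alternatives were a pseudocount of 0.1, no filter, a mean FPKM of at least 5, a fit of 9 IEC libraries, the replicate letter as a block, other scalings of the libraries, a variance not tied to expression, and each library left out in turn. Leaving out IEC12A and IEC4C together was chosen after seeing the data.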

Additional observations from a re-analysis of the deposited data

How the results depend on the processing

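The count of 2296 called genes was within 1.5 times of its value under all alternatives but 1, the filter at a mean FPKM of at least 5, where 1330 of 6168 genes tested were called. With fewer genes tested, some list counts also fell under that filter, for example from 18 to 9 lower in the contractile list. It was 1898 to 2806 when 1 library was left out. The 71 genes past the stricter limits became 123 with a pseudocount of 0.1, 12 without a filter and 0 with the replicate block (2199 genes were called at the main limits with that block, as the adjusted p-values rose), and 2 to 73 when 1 library was left out. The letters A, B and C were not treated as pairing the libraries, since deviations of same-lettered libraries from their stage means correlated at -0.187 to 0.039 across genes. The 1558 genes apart between IEC12A and IEC12C were 2509 with a pseudocount of 0.1. Of 287 changes in which a named gene or list member lost its adjusted p under 0.05, none came with a change of sign. The cause of these shifts was not tested. The unknown number of reads and 3 libraries per stage limit what low values can show.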

Other observations

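Of 27 ribosome biogenesis genes, 6 were called lower and 2 higher, near the 16.3% and 6.34% of all genes tested. Without IEC4A or IEC4B 3 were called lower, and without IEC12A or after scaling to equal totals 0 were called higher. The median, -0.17, was 0.005 after median-of-ratios scaling. MYC, a transcription factor that drives ribosome production, was at 2.4, 9.64 and 17.5 FPKM at day 4 and 0, 0 and 0.160 FPKM at day 12 (log2 fold change -3.06, standard error 0.56, adjusted p = 0.00555), and MYBBP1A, a nucleolar protein, at 5.5, 4.78 and 5.48 FPKM at day 4 and 0.330, 0.688 and 1.45 FPKM at day 12. Of 21 cholesterol genes, 5 were called lower and 0 higher, with INSIG1, which holds back sterol synthesis, at 15.1, 15.7 and 12 FPKM at day 4 and 2.09, 3.99 and 4.84 FPKM at day 12, and 3 were called lower without IEC4B, 8 without IEC12C and 10 after scaling to equal totals. Of 7 glucocorticoid and cAMP responsive genes, 4 were called lower, and 2 without IEC12A. Those called lower included KLF9, a transcription factor, at 6.76, 5.69 and 6.18 FPKM at day 4 and 1.09, 1.0 and 1.37 FPKM at day 12 (log2 fold change -1.74, standard error 0.17, adjusted p = 0.000665), and FOS at 24.1, 17.9 and 20.2 FPKM at day 4 and 5.26, 6.68 and 7.26 FPKM at day 12.

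Of the pluripotency list 4 genes passed the filter and 2 were called lower. Of 12 endothelial transcription factors that passed, 3 were called lower and 1 higher, or 2 higher without IEC12A and 0 higher without IEC4A, IEC4B or IEC12B, with KLF4 at 5.06, 7.0 and 3.62 FPKM at day 4 and 0.238, 0.232 and 0.387 FPKM at day 12 (log2 fold change -2.24, standard error 0.23, adjusted p = 0.00078) and ETS2 at 1.41, 1.64 and 2.4 FPKM at day 4 and 0.0240, 0.0693 and 0.0692 FPKM at day 12. Of the 71 genes past the stricter limits, 60 have a symbol, so 11 of them, 2 higher and 9 lower, could not be described by function.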
